A study of Mus musculus with 2 samples.

Results

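The 31 genes described here make, sense, move and export cholesterol, read here in the mouse line CH12.LX, immortalized cells of a B cell lymphoma. They were chosen by symbol and matched by Ensembl identifier to 31 of the 43346 Ensembl gene entries in the deposited tables. Polyadenylated RNA was sequenced single-end in 2 libraries, numbered 1 and 2 as biological replicates in the labels, each from its own biosample of a line of strain B10.H-2aH-4bp/Wts labelled female. No treatment, genotype or second line is named, so the data give levels in 1 untreated line and the difference between its libraries, and all cells descend from 1 lymphoma. Levels are given in TPM, the share of all transcripts after correction for length, which can be compared between genes.

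Cholesterol is built from acetyl-CoA through mevalonate, the isoprenoid diphosphates, squalene and lanosterol. When sterols in the endoplasmic reticulum run low, Scap escorts the precursor of the transcription factor encoded by Srebf2 to the Golgi, where proteases release the active factor, which raises transcription of the synthesis enzymes. When sterols are plentiful, Insig proteins hold Scap back, and oxysterols activate the liver X receptors (LXR), which raise transcription of exporters such as Abca1 and Abcg1. Dividing lymphocytes need sterols for new membrane and isoprenoids for anchoring small GTPases.

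Sequences are shown for 3 promoters that the results below refer to: the promoter with a complete sterol regulatory element, the promoter with the most CCAAT boxes, and the promoter of the member without a read, the last chosen after its values were seen. They come from RefSeq on GRCm38.p6, plus strand, 5′ to 3′, ending at the base before the start site. The window of Hmgcs1 is chr13:119690101-119690350, that of Mvk chr5:114444019-114444268 and that of Mylip chr13:45389492-45389741. Capitals mark the sterol regulatory element (TCACNCCAC) and the CCAAT box, the site of the factor NF-Y, read on either strand (ATTGG on the other).
Hmgcs1: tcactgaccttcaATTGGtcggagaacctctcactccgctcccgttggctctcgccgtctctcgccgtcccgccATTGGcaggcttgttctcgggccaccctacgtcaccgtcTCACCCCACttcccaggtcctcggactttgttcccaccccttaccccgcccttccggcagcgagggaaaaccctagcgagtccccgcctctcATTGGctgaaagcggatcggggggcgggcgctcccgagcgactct
Mvk: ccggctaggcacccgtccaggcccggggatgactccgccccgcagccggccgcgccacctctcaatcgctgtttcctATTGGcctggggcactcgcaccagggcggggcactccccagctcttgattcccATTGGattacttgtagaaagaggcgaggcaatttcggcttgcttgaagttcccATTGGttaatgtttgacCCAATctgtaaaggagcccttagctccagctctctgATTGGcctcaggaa
Mylip: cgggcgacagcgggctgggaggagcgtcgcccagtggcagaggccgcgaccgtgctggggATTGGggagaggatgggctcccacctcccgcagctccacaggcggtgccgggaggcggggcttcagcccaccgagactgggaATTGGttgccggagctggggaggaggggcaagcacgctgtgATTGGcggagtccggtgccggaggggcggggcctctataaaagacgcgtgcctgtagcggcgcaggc

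The libraries held 22996547 and 25715408 expected counts, of which the 31 genes took 0.257% and 0.264%. Of 8 B cell markers, 8 were at 1 TPM or more in both libraries, from Pax5 (27.5 and 36.3 TPM in replicates 1 and 2) to Cd79b (525 and 545.3). Of 8 macrophage markers, Adgre1 alone reached 1 TPM in both (1.64 and 1.34), with Cd14 and C1qa at 0 counts, and none of 6 hepatocyte markers did. The B cell label thus matched its markers.

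CH12.LX expressed all 19 listed enzymes of the synthesis route. By contrast, the exporter genes among the members, Abca1 and Abcg1, were near or below the detection threshold. Of the 31 genes, 29 stood at 1 TPM or more in both libraries, a level that 48% of all 21474 protein-coding genes reached. The 2 others were the exporter Abca1 and the ubiquitin ligase gene Mylip. The median of the 31 was 34.8 TPM, against 21.03 over the 10317 detected protein-coding genes. Above that median lay 19 members, 13 of them among the 19 synthesis enzymes. The enzymes summed to 951 ± 22.5 TPM (SD, n = 2) and spanned 12.7-fold from the lowest, Hsd17b7, to the highest, Fdps.

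**Figure D1:**
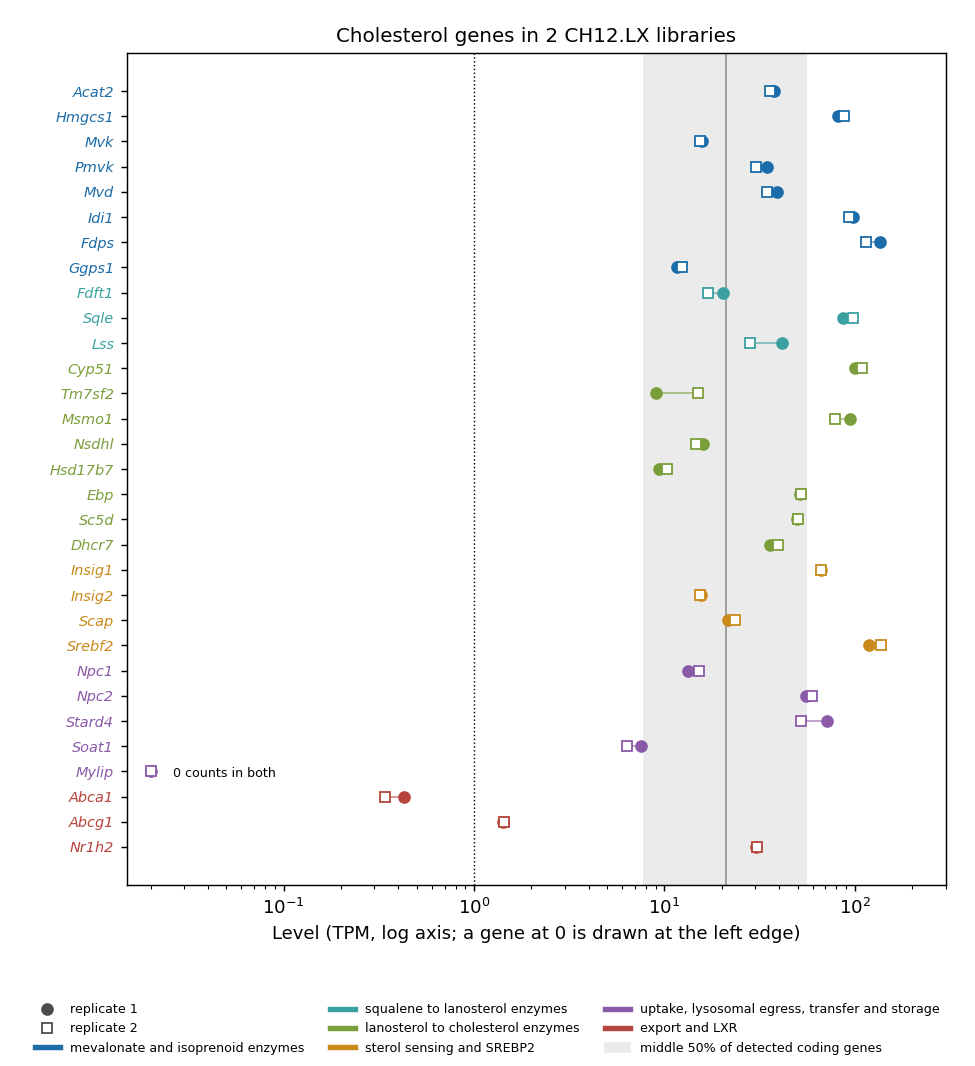
Level of each gene in TPM on a log axis, with filled circles for replicate 1, open squares for replicate 2 and colours for the step of the pathway. Grey marks the middle 50% of detected protein-coding genes with their median as a line, and the dotted line is 1 TPM. The enzymes sit between 9.04 and 135 TPM, while Abca1, Abcg1 and Mylip lie far to the left.

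Among the enzymes that lead to the isoprenoids, the level was uneven from step to step. Fdps, which makes farnesyl diphosphate, stood highest at 135.2 and 114.0 TPM in replicates 1 and 2. Idi1, the isomerase just before it, followed at 97.6 and 92.6 TPM. Hmgcs1, the HMG-CoA synthase whose promoter is printed above, stood at 81.9 and 88.2 TPM. All 3 lay at or above percentile 83.7 of the detected protein-coding genes. The other enzymes of this stretch were lower, with Acat2, the cytosolic thiolase that opens the pathway, at 37.8 and 35.8 TPM and the decarboxylase Mvd at 38.8 and 34.7. Of the kinases, the phosphomevalonate kinase Pmvk stood at 34.4 and 30.2 TPM. The mevalonate kinase Mvk stood lower, at 15.7 and 15.4 TPM, and the ranges of the kinases did not overlap. Ggps1, which diverts farnesyl diphosphate to geranylgeranyl diphosphate for protein prenylation, was the lowest of the stretch at 11.7 and 12.4 TPM.

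At the branch from isoprenoids to sterols, the first enzyme was low and the next was high. Fdft1, the squalene synthase that commits farnesyl diphosphate to sterols, stood at 20.4 and 17.01 TPM. Sqle, the monooxygenase that adds oxygen to squalene, stood at 87.0 and 97.95 TPM, above Fdft1 in both libraries. Lss, the lanosterol synthase that closes the rings, stood at 41.5 and 28.1 TPM, the widest gap between libraries in this stretch.

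From lanosterol onward the first demethylations stood highest. Cyp51, the lanosterol demethylase, reached 99.9 and 108.4 TPM, and Msmo1, the methylsterol monooxygenase, 94.2 and 78.6. Ebp, a sterol isomerase, stood at 51.5 and 52.0 TPM and Sc5d, a sterol desaturase, at 49.4 and 50.5, so by gene totals these later enzymes lay below the demethylases in both libraries. Dhcr7, a reductase of the final steps, stood at 36.04 and 39.3 TPM. The enzymes that act with Msmo1 to remove the methyl groups were much lower, with the dehydrogenase Nsdhl at 15.9 and 14.7 TPM and the ketoreductase Hsd17b7 at 9.37 and 10.3. The reductase gene Tm7sf2 stood at 9.04 and 15.0 TPM. Lbr, the lamin B receptor whose protein carries the same sterol reductase activity, stood at 60.9 and 57.7 TPM, above Tm7sf2 in both libraries.

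The gene for the controlling factor was the most abundant of the 31 by the mean of the libraries. Srebf2 stood at 119.0 and 136.5 TPM, a range that overlapped that of Fdps, which was higher in replicate 1. Its escort Scap stood at 21.4 and 23.5 TPM, so Srebf2 exceeded Scap by 5.55-fold and 5.80-fold. Of the retention proteins, Insig1, itself a target of the factor, stood at 66.3 and 66.0 TPM. Insig2 stood at 15.6 and 15.4 TPM, and Insig1 exceeded it by 4.25-fold and 4.30-fold. By gene TPM the ratio of the Insig genes was thus close in the libraries. In expected counts Insig1 held 2884 and 3196 and Insig2 418 and 521, and the effective length estimated for Insig2 was 1637 and 1864 bases. The transcript Insig2-201 alone stood at 7.91 and 9.56 TPM, so the closeness depends on the estimated mix of Insig2 transcripts.

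Genes of lysosomal egress, transfer and storage were expressed, at unequal levels. Npc2, the lumenal lysosomal carrier, stood at 55.5 and 59.7 TPM, and Npc1, the membrane protein that receives sterol from it, at 13.3 and 15.2. Stard4, a cytosolic sterol carrier, stood at 71.6 and 52.3 TPM. Soat1, which esterifies cholesterol for storage, stood at 7.54 and 6.32 TPM, the lowest of the detected members except Abcg1. Its paralog Soat2 stood at 0.51 and 0.40 TPM.

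With Mylip, the exporter genes Abca1 and Abcg1 formed the low end of the members. Abca1, which loads cholesterol onto apolipoprotein A-I, held 48 and 63 expected counts and 0.43 and 0.34 TPM. Abcg1, which exports to HDL particles, held 83 and 93 counts and 1.42 and 1.43 TPM. The receptor gene Nr1h2, which encodes LXRβ, stood at 30.2 and 30.5 TPM, whereas Nr1h3, which encodes LXRα, held 4 and 2 counts. The LXR partner Rxrb stood at 32.4 and 27.7 TPM, Rxra at 3.11 and 4.02, and Rxrg at 0 counts. Receptor and partner transcripts were present, and Abca1 and Abcg1 stayed at or below 1.43 TPM. Of the other transporter genes, Abca7 stood at 4.22 and 4.49 TPM and Abcg2 higher, as given with the further lists.

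Mylip, an LXR target whose product marks lipoprotein receptors for degradation, was the only member without a read. It had 0 counts in both libraries, which at 3 counts per library allows up to 0.0606 and 0.0545 TPM, counting error only. The gene lies on mm10 chromosome 13 from 45389742 to 45412022. On either side of it, the nearest measured entries at 1 TPM or more in both libraries were Dtnbp1 (64.5 and 49.5 TPM), which ends 388 kb before it, and Gmpr (1.52 and 1.5 TPM), which starts 95.4 kb after it. Of the 41-mers in the annotated Mylip transcripts, 99.6% occur in no other annotated gene on either strand. Its promoter, printed above, holds 3 CCAAT boxes.

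Ordered by mean level, the 31 genes make 30 neighbouring pairs, and in 14 of them the ranges of the libraries did not overlap. Fdps and Cyp51 separated, as did Cyp51 and Idi1, Hmgcs1 and Insig1, Npc2 and Ebp, and Nr1h2 and Scap. The order within Idi1, Sqle, Msmo1 and Hmgcs1 was not resolved between neighbours, nor was that within Dhcr7, Acat2, Mvd, Lss, Pmvk and Nr1h2.

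Between the libraries, 15 of the 30 members tested differed in a two-sided exact binomial test with Benjamini-Hochberg adjustment over 15340 genes, 10 higher in replicate 2 and 5 lower. The same test called 30.6% of all genes, 14.7% higher and 15.9% lower. Among genes with a mean of at least 100 scaled counts, it called 15 of 28 members (53.6%) and 39% of all 10098. That test compares the libraries, holds counting error only, and gains power with abundance. With edgeR's negative binomial exact test, which allows for the spread between the libraries over all genes, 0 members were called, and 0 had an unadjusted p under 0.05, against 2.54% of all genes called. With the smaller dispersion of genes whose reads are placed with certainty, the same test again called 0 members, against 4.95% of all genes, and 2 had an unadjusted p under 0.05, Tm7sf2 and Hsd17b7. The differences below were thus past counting error and past neither negative binomial test. Both dispersions were estimated from the same 2 libraries, so the differences tested are part of the spread allowed for. The 0 calls therefore do not show that the libraries were equal.

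The controlling and transport genes called were all higher in replicate 2, while the enzymes went both ways. Srebf2 had a log2 ratio of 0.21 on counts (adjusted p = 2.28e-26, exact binomial), Scap 0.15, Npc1 0.20 and Npc2 0.12. Of the 19 enzymes, Hmgcs1, Sqle, Cyp51, Tm7sf2, Hsd17b7 and Dhcr7 were higher in replicate 2, and Pmvk, Fdps, Fdft1, Lss and Msmo1 were lower. Fdps had a log2 ratio of -0.23 (adjusted p = 1.38e-07, exact binomial). Of the consecutive enzymes Fdft1 and Sqle, Fdft1 had a log2 ratio of -0.24 (adjusted p = 0.00201, exact binomial) and Sqle 0.19 (adjusted p = 4.86e-09). Over the 30 members the median log2 ratio was 0.02, against 0.00 over all genes tested, and with library totals in place of TMM it was -0.0038 against -0.02. Of the members, 29 of the 30 lay within 0.5 of equal, against 95.9% of genes with at least 100 scaled counts. Lss was not called when genes with low counts were kept in the adjustment (adjusted p = 0.0550, exact binomial). In the same comparison 7 of the 8 B cell markers were higher in replicate 2, and the part of that shift in the results was not tested.

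Tm7sf2 had the largest difference of the members, a log2 ratio of 0.68 on 129 and 227 expected counts (adjusted p = 1.13e-04, exact binomial). It was also the only member whose read assignment was uncertain, its count having a posterior SD equal to 7.78% of it in replicate 1 and 6.43% in replicate 2. Of its 41-mers, 10.3% also occur on the same strand in Vps51, which stood at 35.4 and 37.5 TPM. Without Tm7sf2, 14 of 29 members were called.

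**Figure D2:**
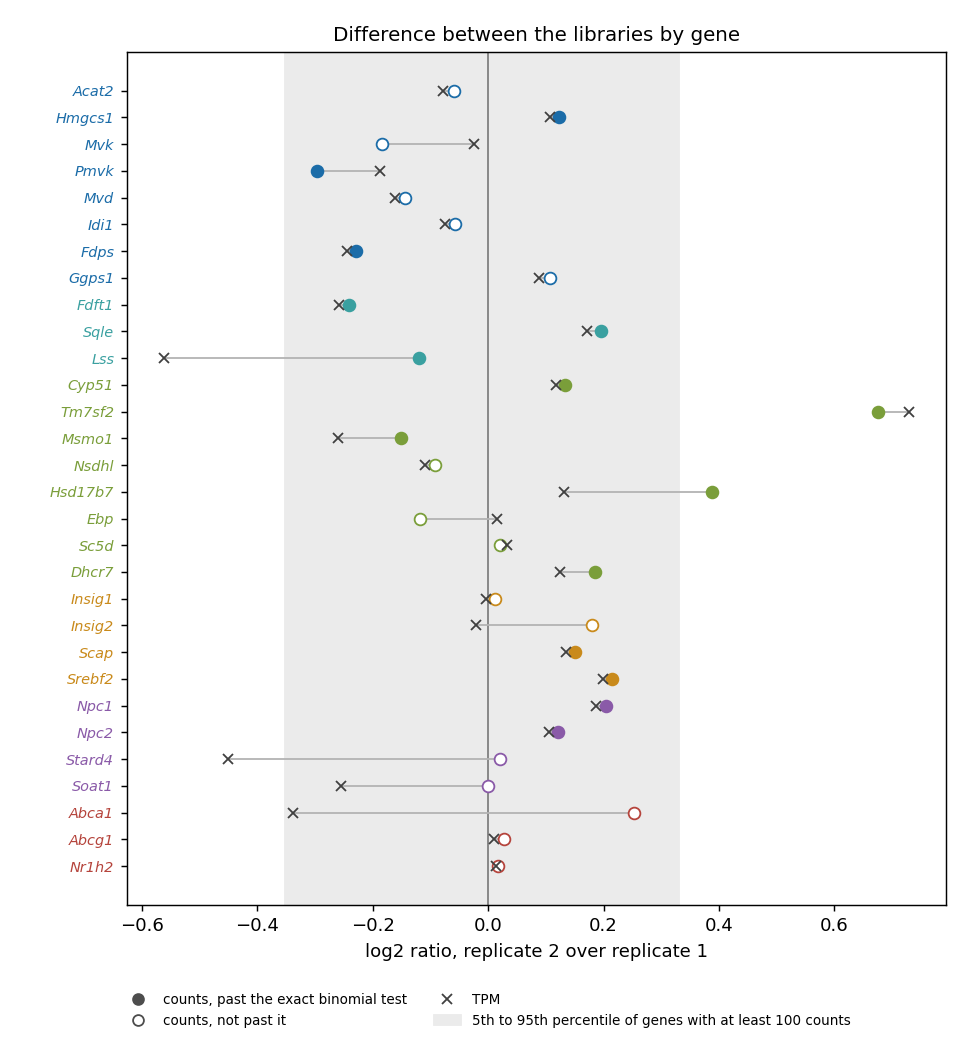
log2 ratio of replicate 2 over replicate 1 for the 30 members with reads, on counts (circles, filled where past the exact binomial test) and on TPM (crosses). Grey spans the 5th to 95th percentile of genes with at least 100 scaled counts, from -0.35 to 0.33. Circles and crosses lie far apart for Lss, Stard4 and Abca1.

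For 6 members the libraries differed in TPM and in counts by amounts more than 0.2 apart on the log2 scale. In these genes the estimated mix of long and short transcripts differed, and with it the length by which counts are divided. Stard4 had nearly equal scaled counts (log2 ratio 0.02) but a TPM log2 ratio of -0.45, with an effective length of 2928 bases in replicate 1 and 4018 in replicate 2. Its short transcript Stard4-202 had 240 expected counts in replicate 1 and 1.91 in replicate 2, but posterior mean counts of 242 ± 29.2 and 31.7 ± 22.3 (posterior SD). The main transcript Stard4-201 stood at 36.6 and 39.3 TPM. For Lss, the short noncoding Lss-202 had 85.6 and 28.0 expected counts and took 16.8 and 4.92 TPM, while the coding Lss-201 stood at 19.04 and 16.96. By the main coding transcript alone, the gaps of Lss and Stard4 were thus smaller than by the gene total. The others were Abca1, Hsd17b7, Soat1 and Insig2. In Abca1, 1.82 counts on the short Abca1-202 in replicate 1 were enough to turn a count log2 ratio of 0.25 into a TPM log2 ratio of -0.34, and its counts did not pass the exact binomial test (adjusted p = 0.595).

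Most members were read as coding transcripts. Over the 30 genes with reads, the median share of TPM on transcripts annotated as protein coding was 99.5%, and 17 genes exceeded 99% in both libraries. In 12 genes a single transcript held over 99% in both. Of these, Srebf2, Insig1, Scap, Hmgcs1, Fdps, Npc2, Mvd, Ggps1 and Fdft1 are listed with 1 transcript each, a coding one. Their shares of 100% were thus fixed by the annotation, and they count in the median and in the 17. The remaining ones were Cyp51-201, Nsdhl-201 and Abcg1-201. The share fell below 90% for 6 genes, Ebp, Msmo1, Lss, Tm7sf2, Nr1h2 and Abca1.

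Ebp had the lowest coding share, 32.6% and 39.9% in replicates 1 and 2. Its retained-intron transcript Ebp-202 held 25.01 and 18.5 TPM, and the coding Ebp-203 held 15.2 and 19.9, so the leading transcript changed between libraries. The coding share of Msmo1 was 44.1% and 41.5%, with the coding Msmo1-201 at 37.95 and 29.98 TPM beside a noncoding processed transcript at 36.7 and 38.8. In replicate 1 these 2 lay close together, and the posterior SD of their counts was 53.2 and 60.9 reads. The level of coding Ebp and Msmo1 RNA was therefore well below the gene totals given above. The coding transcripts of Msmo1 summed to 41.5 and 32.6 TPM, below Sc5d in both libraries, so the order of Msmo1 and Sc5d by gene totals turned. Those of Ebp summed to 16.8 and 20.7 TPM, which also lay below Sc5d. For 28 of the 30 genes the leading transcript was the same in both libraries, the exceptions being Ebp and Msmo1. The 28 include the genes listed with 1 transcript, in which the leader could not change. Sqle kept its leading transcript with an unequal mix, Sqle-201 at 67.1 and 90.1 TPM and the coding Sqle-202 at 18.4 and 6.67.

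**Figure D3:**
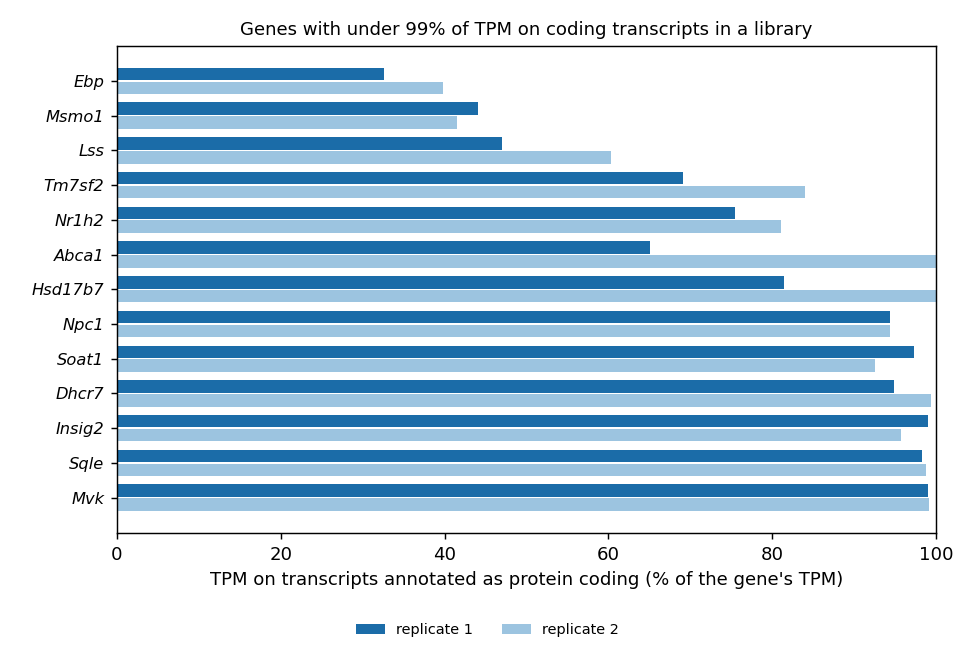
Percent of each gene's TPM on transcripts annotated as protein coding, dark bars for replicate 1 and light bars for replicate 2, for the genes under 99% in a library. Ebp and Msmo1 stay under 45% in both libraries, and Abca1 and Hsd17b7 reach 100% in replicate 2.

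Some members share letters with other genes, which matters because short reads cannot be told apart there. Of the 31 genes, 8 had fewer than 90% of their 41-mers to themselves, counting both strands. Acat2 was lowest at 59.0%, since 41.02% also occur in Acat3, which was listed at 0.77 and 0.57 TPM. Within these, 11.99% of the Acat2 41-mers also occur on the opposite strand of Tcp1, a chaperonin gene at 552 and 406 TPM. Idi1 shares 18.01% with the entry Gm13502 (23.4 and 7.84 TPM), and Fdft1 shares 17.4% with Ctsb on the opposite strand (42.8 and 44.4 TPM). Fdps, with 72.8% to itself, shares 23.98% with Gm43738 and 13.9% with Gm3571 (1.14 and 0.88 TPM), both on the same strand. Whether the libraries keep strand is not stated in the labels, which bears on the overlaps with Tcp1 and Ctsb. The overlap of Acat2 with Acat3 is on the same strand. The levels of Acat2, Idi1, Fdft1 and Fdps are uncertain to the extent of the shared letters. Even so, the posterior SD of these genes was at most 0.92% of the count.

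Promoter sequences from RefSeq were matched for 25 of the 31 genes, with Fdps, Fdft1, Sqle, Npc1, Stard4 and Abcg1 not matched. In the 250 bases before the start, 15 of 16 synthesis enzymes (93.8%) held a CCAAT box on either strand, against 41.3% of 8236 detected and 39.2% of all 16522 protein-coding genes in the table. Acat2 was the enzyme without a match. Among the 9 other members the count was 6 (66.7%), and Abca1, Nr1h2 and Scap held none. The window of Mvk held 5 boxes, the most of any member, and Hmgcs1, Msmo1, Hsd17b7, Ggps1, Insig2 and Mylip held 3 each.

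The GC box (GGGCGG, either strand), a site of Sp1, was in the windows of 21 of the 25 members (84%), against 64.5% of detected protein-coding genes. The sterol regulatory element TCACNCCAC, on either strand, was found in Hmgcs1 alone, 137 bases before its start, and in 1.21% of detected protein-coding genes. The shorter CACNCCAC, which that element contains, was found in Hmgcs1, Acat2 and Insig1 (12% of 25), against 6.45% of detected protein-coding genes. These are exact matches in short windows, and a missing match says nothing of binding.

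**Figure D4:**
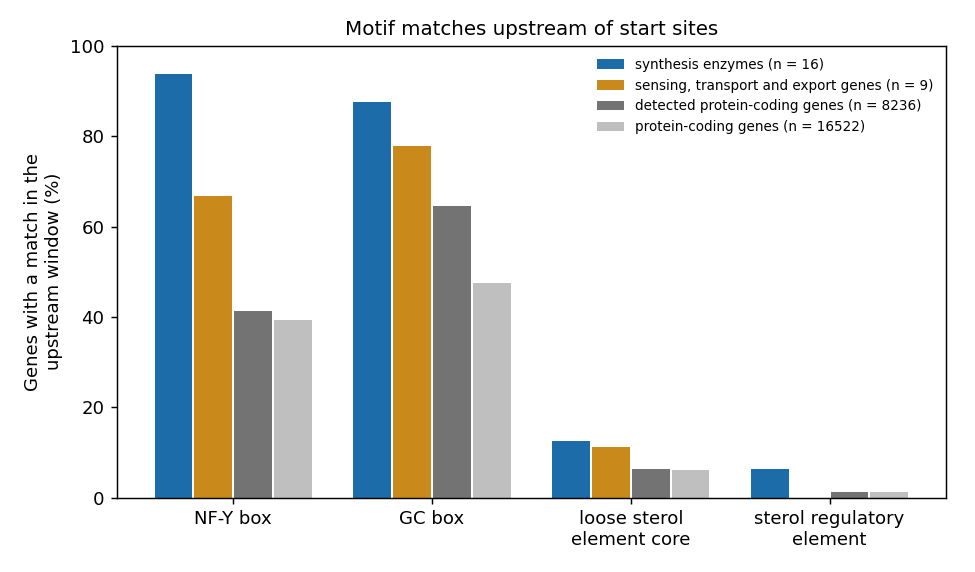
Percent of genes with a match on either strand in the 250 bases before a start site, for 16 synthesis enzymes, 9 other members, detected and all protein-coding genes. The NF-Y box, which has the letters CCAAT, is in 93.8% of the enzymes and 41.3% of detected genes.

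Srebf2 also hosts a microRNA, Mir33, known for acting on Abca1 transcripts. It was looked at after the level of Abca1 was seen. The mature sequence from RefSeq (GRCm38.p6, chr15:82198127-82198147, plus strand, inside Srebf2) is printed with its seed, bases 2 to 8, in capitals, and beneath it the stretch of the Abca1-201 3′ UTR that holds the complement of that seed.
mmu-miR-33-5p: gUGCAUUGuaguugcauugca
Abca1 sites: tattCAATGCAATGCActtCAATGCAac
The Abca1 stretch lies at chr4:53033785-53033812 on the minus strand of GRCm38, bases 131 to 158 after the stop codon, and capitals mark 3 copies of CAATGCA, of which the first 2 overlap. Of 10192 detected protein-coding genes with an annotated 3′ UTR in their leading coding transcript, 5.71% held the 7-mer and 4 held 3 or more copies, Abca1 itself being below detection. The median length of these 3′ UTRs was 873 bases, against 1462 over the 31 genes. Among the 31 genes Abcg1 held 2 copies and Nsdhl 1, and the other 28 held none. The 3′ UTR was 3156 bases long in Abca1-201, 3703 in Abcg1-201 and 900 in Nsdhl-201. Of those without a copy, Sc5d-201 (3747) and Stard4-201 (4231) were longer still. In the order of levels Nsdhl was in rank 23 and Abcg1 and Abca1 in ranks 29 and 30, while Mylip, in rank 31, held none. The mature microRNA was not measured by these libraries, and its part in any level was not tested.

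The rest of the sterol machinery was read from lists of 68 further genes, of which 55 (80.9%) were detected. All 10 genes of precursor cleavage and sterol-regulated degradation were, with the proteases Mbtps1 at 25.3 and 26.0 TPM and Mbtps2 at 18.4 and 22.1. Aup1, an adaptor of the degradation machinery, stood at 154.6 and 161.8 TPM. Of these 10, 3 were higher and 1 lower in replicate 2 by the exact binomial test, against 14.7% and 15.9% of all genes. Whether so short a list differs from those shares was not tested. The genes listed for the steps around Srebf2 were thus all detected. Of 9 LXR partners and other export genes, 6 were detected, led by Lpcat3, a phospholipid acyltransferase and LXR target, at 66.0 and 82.7 TPM. The HDL receptor gene Scarb1 stood at 19.1 and 18.2 TPM and the transporter gene Abcg2 at 18.6 and 16.4. Of the 7 tested in this list, Rxrb alone was called, lower in replicate 2, beside 15.9% of all genes called lower.

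All 13 genes of the isoprenoid branches were detected, led by Rabggtb, a subunit of the Rab prenyltransferase, at 179.1 and 177.0 TPM and Fnta, the shared subunit of the farnesyl and geranylgeranyl transferases, at 63.3 and 58.9. By the same test 1 of the 13 was higher and 1 lower in replicate 2, a smaller share than the 30.6% called of all genes. Of 21 sterol transfer genes, 19 were detected. Tmem97, a membrane protein that binds Npc1, led them at 188.1 and 196.8 TPM, followed by Vapa, the membrane anchor of transfer proteins, at 114.8 and 123.8. Osbpl6 and Osbpl10 were the 2 not detected. Of the 20 tested in this list, 2 were higher and 0 lower in replicate 2 by the exact binomial test, again a smaller share than the 30.6% of all genes.

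Of the 5 genes listed as oxysterol enzymes, all but Hsd3b7 were at or near 0 counts. Ch25h, Cyp7b1 and Cyp46a1 had 0 counts in both libraries and Cyp27a1 had 1 and 0. Hsd3b7 alone of the 5 was detected, at 5.95 and 4.58 TPM, and the posterior SD of its count was 12.6% and 15.1% of it, so its level is uncertain. By the exact binomial test it was lower in replicate 2 (log2 ratio -0.42, adjusted p = 8.23e-04). Of 6 bile acid and steroid hormone genes, 2 were detected. These were Cyp11a1, the enzyme that cleaves the cholesterol side chain to start steroid synthesis, at 9.38 and 9.39 TPM, and Star, which carries cholesterol to it, at 1.38 in both. The next enzymes Hsd3b1 and Cyp17a1 had 0 counts in both and 1 and 0 counts. Cyp7a1, the first enzyme of bile acid synthesis, had 1 and 5 counts and Cyp8b1 2 and 7.

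**Figure D5:**
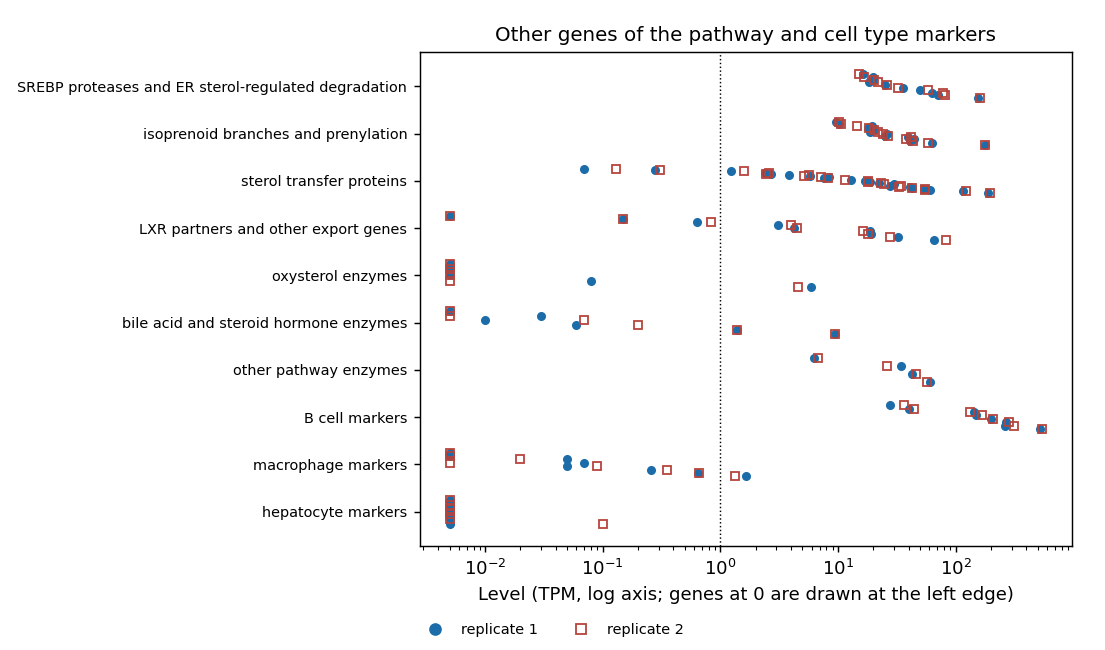
Level in TPM on a log axis of the genes in 7 further pathway lists and 3 marker lists, circles for replicate 1 and squares for replicate 2, with 1 TPM dotted. Oxysterol, bile acid and steroid genes crowd the left edge apart from Hsd3b7, Cyp11a1 and Star.

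Paralogs of other members were low except Stard5. Idi2 held 2 and 1 counts. Abcg4 stood at 0.64 and 0.84 TPM. Stard5 was the only paralog of the list at 1 TPM or more in both libraries, at 30.1 and 24.5. Among other enzymes, the lysosomal lipase Lipa, which frees cholesterol from lipoproteins taken up, stood at 42.7 and 46.1 TPM. The ester hydrolase Nceh1 stood at 6.32 and 6.74 TPM, near Soat1, which acts in the opposite direction.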

How the data were processed

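The authors deposited, per the file headers, expected counts (estimated reads per gene or transcript), TPM, FPKM, posterior mean counts and TPM, the posterior SD of each count (a signal in reads) and the percent of a gene's TPM on each transcript. Per the deposited notes, these came from transcriptome alignments on mm10 with GENCODE M4. Which aligner and quantifier were used is not given in the sources used here. Entries without an Ensembl identifier (0.0426% and 0.0539% of counts) stayed out of tests. Names and coordinates came from GENCODE M21 on GRCm38.

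Counts were rounded. Genes with at least 10 counts over both libraries were tested with an exact binomial test (scipy 1.17.1) against TMM effective library sizes (edgeR 4.0.16), adjusted p under 0.05. The design has 2 libraries of 1 group and no residual degrees of freedom for a quasi-likelihood test. Ratios used a pseudocount of 0.5. Assignment was called uncertain at a posterior SD over 5% of the count. The exact binomial test was also run on simulated counts that held counting error only. That run cannot show how the test behaves under the spread between these libraries. All members were named. Of the other lists, the highest 2 to 4 and those near 0 were, with the paralogs. Some items are not reported here. Mbtps1, Mbtps2 and Rxra, the Mylip promoter and the Abca1 sites lie outside this rule and were chosen after their values were seen. Alternatives covered DESeq2 1.42.0 size factors, library totals, no filter, posterior means, other thresholds and negative binomial tests (coefficient of variation 19.8%, or 8.85% over genes of certain assignment). The members and lists were chosen with earlier results of these data known.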

Additional observations from a re-analysis of the deposited data

How the results depend on the processing

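With 2 libraries the precision of each level is low, and leaving out a library leaves values with no test. The count of members called between the libraries was 15 with TMM, DESeq2 size factors and posterior mean counts (30.6%, 30.5% and 29.7% of all genes), 17 with library totals, against 30.5% of all genes, and 14 without a filter, against 20.2%. It was also 14, of 29, without the member of uncertain assignment, chosen after seeing the data. It was 0 with the negative binomial exact test of edgeR (2.54% of all genes) and 0 with the dispersion of genes of certain assignment (4.95%), the latter also chosen after seeing the data. With library totals Mvd and Idi1 were called too, both lower in replicate 2, and the members' median log2 ratio was -0.0038 in place of 0.02. Detection gave 29 members in every setting except 5 TPM, with 28. Without a replicate, the median level ranged from 30.5 to 36.04 TPM and the median coding share from 99.46% to 99.95%. The posterior mean and the rescaled TPM gave medians of 33.8 and 37.2. With 50 bases after the start included, the GC box was found in 88% of members and 69.6% of detected protein-coding genes. No paired analysis was possible because there is 1 group.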
